A study of Homo sapiens with 12 samples.

Results

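The hypoxia response and glycolysis genes described here were 42 genes chosen by symbol from the 57169 of the deposited count table, and all 42 were found in it. They formed 2 lists, 25 targets of the hypoxia response and 17 genes of glycolysis, the glycolysis list made of enzymes and the lactate exporter SLC16A3. RNA was measured in 12 tumour libraries, 6 from xenografts of SK-ES1 knocked down for RING1B and 6 from SK-ES1 xenografts labelled wild-type, called control here. SK-ES1 is an established Ewing sarcoma cell line that carries the EWSR1-FLI1 fusion, a xenograft is a tumour grown from such cells in a host animal, and RING1B, encoded by RNF2, is the ubiquitin ligase subunit of Polycomb repressive complex PRC1. The labels name no silencing construct, control construct, host or tumour age, and every library came from the same cell line. The numbers in the library titles were shared by 4 pairs of libraries of the same group, and whether each library is a tumour of its own animal is not stated in the labels. Knock-down and control tumours below stand for the 6 libraries of each group. The p-values therefore cover only the spread among these 12 samples, which may be technical.

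Cells short of oxygen stabilise the hypoxia-inducible factors HIF1A and EPAS1, which pair with ARNT, bind DNA at a short core motif and raise transcription of genes for glucose import, lactate production, mitochondrial turnover, pH control and blood vessel growth. With oxygen present, the prolyl hydroxylases EGLN1 and EGLN3 mark the factors for VHL and destruction, and because both hydroxylase genes are themselves targets they form a feedback loop. Glycolysis turns glucose into pyruvate, and lactate dehydrogenase and the lactate exporter carry the product out of the cell. Solid tumours, xenografts among them, commonly hold poorly perfused areas where these genes are high. In a bulk tumour library, fewer cells of a type and less RNA per cell cannot be told apart.

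The knock-down was present in the RNA of every library so labelled. RNF2 lay between 12.4 and 23.4 CPM (counts scaled to a common library total with TMM factors, the trimmed mean of M values) with a median of 18.4 in knock-down tumours, against 37.5 to 57.9 with a median of 49.2 in control tumours. The groups did not overlap (log2 fold change −1.43 with SE 0.174, adjusted p = 0.00347 in edgeR). Total counts were 23859184 to 26678325 per library. Control 6 had the fewest genes with a count, 24918, against 26468 (knock-down 2) to 27456 (control 3) in the other libraries, and the lowest TMM factor, 0.921. Of 8 Ewing sarcoma markers 7 were detected, NKX2-2, CCND1 and PRKCB among them, while CD99 was listed at 0 in all 12 libraries. How reads matching several loci were counted is not given, so that 0 cannot be read as absence of CD99 RNA. Summed markers of fibroblasts and pericytes reached 397 to 1551 CPM in knock-down and 558.5 to 1548 CPM in control tumours, those of macrophages and leukocytes 4.41 to 21.8 CPM and 4.04 to 17.4 CPM, and those of endothelium 8.16 to 15.2 CPM and 10.6 to 14.6 CPM. Summed markers of skeletal muscle reached 1.23 to 15.6 CPM and 2.75 to 24.7 CPM, and those of blood 6.18 to 23.0 CPM and 2.63 to 13.9 CPM. Few genes carried most of several of these sums. In knock-down tumours LYZ averaged 5.86 of the 9.73 CPM for macrophages and leukocytes, and EMCN 7.74 of the 12.1 CPM for endothelium. HBB averaged 11.4 of the 12.3 CPM for blood there. The share of counts on mitochondrial genes was 5.55% to 10.01% in knock-down and 4.65% to 14.4% in control tumours.

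None of the 42 genes passed the test between the groups, although the lists leaned to opposite sides. The comparison asked whether less RING1B in the tumours went with another level of the hypoxia and glycolysis programmes. All 42 were among the 16519 genes tested, and edgeR's quasi-likelihood test called 0 of 25 hypoxia targets and 0 of 17 glycolysis genes at an adjusted p under 0.05, where it called 0.297% of all genes tested. Among hypoxia targets 17 of 25 lay on the positive side (68.0%, against 52.4% of all genes), and their median log2 fold change was 0.12. Among glycolysis genes 4 of 17 did, HK1, ALDOA, LDHA and GPI (3 of 17 with RLE factors or library size as the scaling, 6 under limma-voom, with counts summed by title number or without knock-down 5, and 7 without control 1), with a median of −0.11, beside a median of 0.01 over all genes tested. An unadjusted p under 0.05, which 12.7% of all genes had in either direction, was reached by 9 of the 42. Of these, 6 hypoxia targets were higher and 0 lower, which is 24.0% of the list against 7.45% of all genes for the higher direction, and 3 glycolysis genes were lower and 0 higher, 17.6% of that list against 5.21% of all genes for the lower direction. The members and lists were chosen with earlier results of these data known, so these shares describe the lists and test nothing. DESeq2 called 1 of the 42, ANGPTL4, against 2.22% of the genes it tested, and limma-voom called 0 of the 42, against 0.339%. No member had separate groups, while 0.648% of all genes were higher and 0.575% lower in every knock-down library than in every control library.

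The size of either lean depended on single libraries. The hypoxia median was 0.06 without knock-down 4, 0.08 without knock-down 2, 0.05 without control 5, 0.06 without control 2, 0.20 without control 6 and 0.18 without knock-down 6. The glycolysis median was −0.19 without knock-down 4, −0.06 without knock-down 5, −0.03 without control 1, −0.07 without control 2 and −0.18 without control 5. With weights for the quality of each library in limma-voom, the hypoxia median was −0.005 with 12 of 25 genes positive, and without control 6, knock-down 4 and knock-down 5 together it was 0.007 with 14 of 25 positive. The glycolysis median was −0.17 and −0.16 under the same settings.

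**Figure D1:**
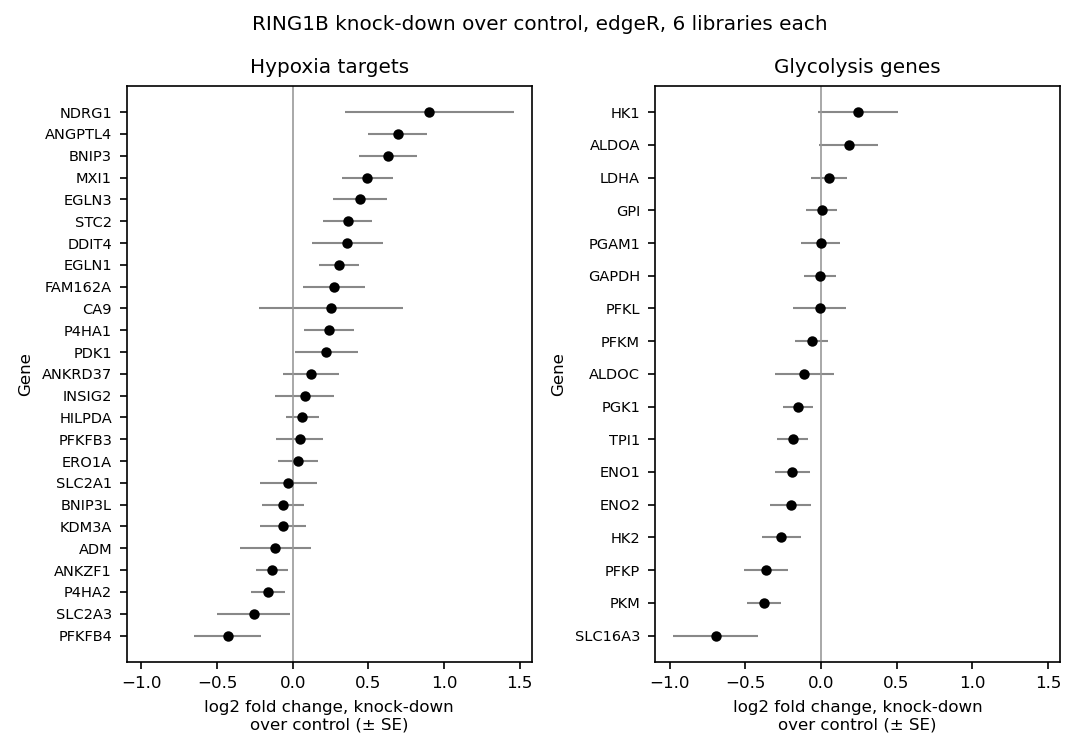
Log2 fold change of each gene, RING1B knock-down over control, with its standard error, for 25 hypoxia targets and 17 glycolysis genes (6 libraries in each group, edgeR). Hypoxia targets run between −0.43 (PFKFB4) and 0.90 (NDRG1) and glycolysis genes between −0.69 (SLC16A3) and 0.24 (HK1), and none passed the adjusted test.

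The ACGTG form of the HIF core motif is shown because the factors bind that core, and the genes below differ in whether their promoters hold this form. Promoters were 300 bases of RefSeq sequence on GRCh38.p14, 250 before and 50 after the transcription start, and were matched for 37 of 42 members (NDRG1, BNIP3L, SLC2A3, ANKZF1 and HILPDA had no entry). Only ACGTG was searched, on both strands, on the reverse strand as CACGT, and the palindrome CACGTG holds a match on each strand that overlap. The form GCGTG was not searched and is not in capitals below, so a promoter without a match may still hold a core. At least 1 match stood in 10 of 20 hypoxia targets and in 8 of 17 glycolysis genes (47.1%), against 5900 of 27305 promoters in all (21.6%). For 35 of the 37 members, bases 16 to 40 after the start occurred in a GENCODE transcript of the gene. GAPDH, which is counted among the 8, and PFKP were the exceptions, and no window is given for GAPDH. A match is a run of letters and not a measured binding site. Windows of 60 bases around a match are given 5′ to 3′ on the strand of the gene, with the core letters in capitals, for 7 hypoxia targets and 2 glycolysis genes whose values are given below. They lie at chr10:131982025-131982084 (minus strand) for BNIP3, chr19:8363905-8363964 (plus) for ANGPTL4, chr1:231422288-231422347 (minus) for EGLN1, chr9:35673868-35673927 (plus) for CA9, chr10:73096921-73096980 (minus) for P4HA1, chr3:122384070-122384129 (plus) for FAM162A, chr10:72273771-72273830 (plus) for DDIT4, chr11:18394462-18394521 (plus) for LDHA and chr2:74834051-74834110 (plus) for HK2.
BNIP3: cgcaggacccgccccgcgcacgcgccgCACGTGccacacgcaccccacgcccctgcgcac
ANGPTL4: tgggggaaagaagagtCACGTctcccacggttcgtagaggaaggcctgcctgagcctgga
EGLN1: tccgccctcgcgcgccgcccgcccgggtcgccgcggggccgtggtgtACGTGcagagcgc
CA9: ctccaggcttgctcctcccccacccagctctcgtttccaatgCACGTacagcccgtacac
P4HA1: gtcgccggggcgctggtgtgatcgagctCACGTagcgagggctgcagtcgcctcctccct
FAM162A: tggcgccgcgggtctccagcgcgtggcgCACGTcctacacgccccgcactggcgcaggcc
DDIT4: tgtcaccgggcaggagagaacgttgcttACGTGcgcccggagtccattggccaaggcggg
LDHA: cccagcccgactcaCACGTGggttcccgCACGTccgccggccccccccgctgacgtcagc
HK2: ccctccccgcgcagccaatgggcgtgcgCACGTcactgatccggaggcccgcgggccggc
BNIP3 holds the full palindrome, LDHA holds the palindrome and a further CACGT, and the other windows hold 1 match each. Genes whose values lay higher, lower and near the same level in knock-down tumours are all among those with a match.

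Per kilobase of exon, the glycolysis genes were the more abundant list. Their mean level over the 12 libraries ran between 5.13 CPM per kilobase for SLC16A3 and 821 for ENO1, with a median of 44.7, while hypoxia targets ran between 0.286 for NDRG1 and 53.4 for FAM162A, with a median of 8.56. After ENO1 came GAPDH at 612, LDHA at 257, PKM at 223, PGK1 at 169 and TPI1 at 145 CPM per kilobase. The most abundant hypoxia targets per kilobase were FAM162A, DDIT4 at 49.2 and P4HA1 at 43.1. DDIT4-AS1 overlaps 41.2% of the exon bases of DDIT4 on the other strand, and the strand setting of the counting is not given. CA9, the carbonic anhydrase often used as a tissue marker of hypoxia, stood at 0.47 CPM per kilobase, and its counts averaged 19.4 per library, so its values carry a wide counting error. ALDOA was listed at 11.8 CPM per kilobase, below most steps of the pathway, and 42.3% of its exon bases are shared on the same strand with AC093512.2, so its level is uncertain. Near-identical pseudogene copies add the same doubt elsewhere: 62 pseudogenes named for GAPDH held 7815 counts in all libraries, 6 named for LDHA held 14586, 13 named for PGAM1 held 867 and 39 named for BNIP3 held 250.

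Among secreted and mitochondrial hypoxia targets, ANGPTL4 and BNIP3 gave the smallest p-values of the list. ANGPTL4 (chr19:8363289-8374373, hg38), a secreted inhibitor of lipoprotein lipase, was at 9.43, 15.7 and 22.6 CPM (lowest, median, highest) in knock-down tumours, against 7.73, 10.2 and 12.2 CPM in control tumours. In 5 of 6 knock-down libraries it lay above the highest control, and knock-down 3 lay within the control range. Its log2 fold change was 0.69 (SE 0.195), a fold of 1.62, and edgeR gave an adjusted p of 0.167 where DESeq2 gave 0.0437. BNIP3 (chr10:131966455-131982013), an outer mitochondrial membrane protein that acts in mitophagy, was at 65.4, 113 and 175 CPM in knock-down tumours, against 60.2, 76.0 and 92.4 CPM in control tumours. Again 5 of 6 knock-down libraries lay above the highest control, and the exception was knock-down 6. The log2 fold change was 0.63 (SE 0.192), a fold of 1.54, with adjusted p = 0.201 in edgeR and 0.0733 in DESeq2.

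Further transcripts with a positive log2 fold change and an unadjusted p under 0.05 were MXI1, EGLN3, EGLN1 and STC2. MXI1 (chr10:110207605-110287365), a MAX partner that antagonises MYC, was at 48.5, 75.5 and 102 CPM in knock-down tumours, against 44.7, 52.2 and 63.7 CPM in control tumours. Of the knock-down libraries 4 lay above every control and the other 2 within the control range (log2 fold change 0.49, SE 0.169, edgeR adjusted p = 0.248). EGLN3 was at 4.23, 5.68 and 7.32 CPM in knock-down tumours, against 3.31, 4.16 and 5.17 CPM in control tumours, and EGLN1 was at 54.6, 69.9 and 84.4 CPM, against 48.0, 52.3 and 72.3 CPM. Every knock-down library exceeded the control median for both hydroxylases, yet the groups overlapped (log2 fold changes 0.44 and 0.31, edgeR adjusted p = 0.322 and 0.348). STC2, a secreted glycoprotein, was at 19.3, 29.3 and 40.5 CPM in knock-down tumours, against 19.5, 22.9 and 25.6 CPM in control tumours. Its knock-down values covered the whole control range and went past it on both sides (log2 fold change 0.36, edgeR adjusted p = 0.364).

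**Figure D2:**
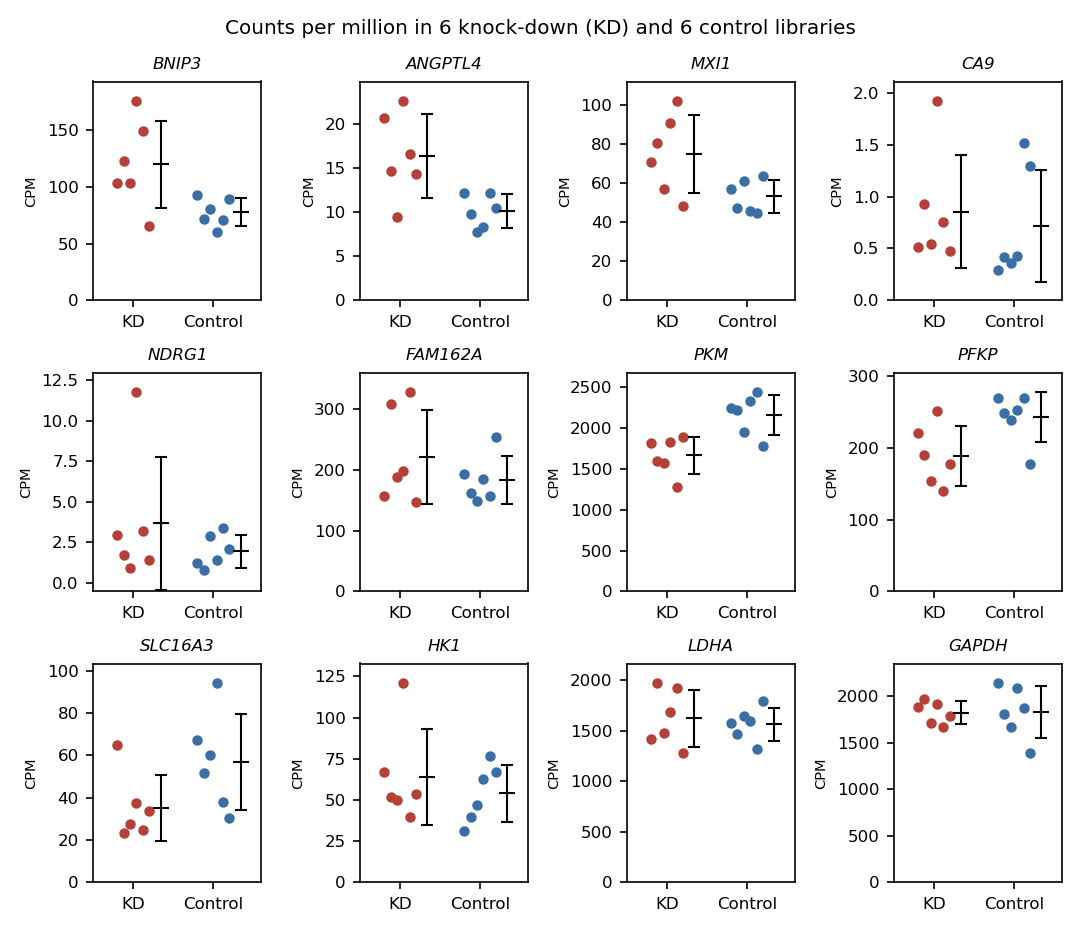
CPM of 12 of the genes in each of 6 RING1B knock-down (left, red) and 6 control (right, blue) libraries, with mean and SD beside the points, each gene on its own axis. BNIP3 and ANGPTL4 have 5 of 6 knock-down points above every control, PKM has 3 knock-down points below every control, and NDRG1, CA9 and HK1 have 1 knock-down point (knock-down 4) far above the rest.

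CA9 and NDRG1 were the least steady of the targets. CA9 (chr9:35673856-35681159) was at 0.473, 0.649 and 1.92 CPM in knock-down tumours, against 0.297, 0.422 and 1.51 CPM in control tumours. Knock-down 4 was highest among its group and control 5 and control 6, at 1.51 and 1.30 CPM, stood above the other 4 controls (log2 fold change 0.25, SE 0.476, edgeR adjusted p = 0.868). ARHGEF39 overlaps 38.5% of the exon bases of CA9 on the other strand, and the strand setting of the counting is not given. NDRG1, a stress-induced cytoplasmic protein, was at 0.910, 2.33 and 11.8 CPM in knock-down tumours, against 0.759, 1.74 and 3.38 CPM in control tumours. Its log2 fold change of 0.90, the largest of the 42, was 0.06 without knock-down 4 (edgeR adjusted p = 0.524 with all libraries and 0.965 without it).

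The 3 hypoxia targets most abundant per kilobase had higher maxima in knock-down tumours. FAM162A, a mitochondrial protein linked to cell death, was at 148, 194 and 328 CPM in knock-down tumours, against 148, 174 and 255 CPM in control tumours (log2 fold change 0.27, edgeR adjusted p = 0.603). DDIT4, an inhibitor of mTORC1, was at 69.5, 95.5 and 201 CPM, against 70.0, 87.0 and 127 CPM (0.36, adjusted p = 0.540 in edgeR). P4HA1, a collagen prolyl hydroxylase, was at 102, 137 and 190 CPM, against 104, 119 and 149 CPM (0.24, adjusted p = 0.573 in edgeR). For each of these the lowest values of the groups nearly coincided and the highest value belonged to a knock-down library.

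Among the remaining 14 hypoxia targets, no log2 fold change had an unadjusted p under 0.05. Glucose transporters SLC2A1 and SLC2A3 had log2 fold changes of −0.03 and −0.26. PDK1, which blocks entry of pyruvate into the mitochondrial cycle, averaged 55.3 ± 19.2 CPM in knock-down and 47.5 ± 8.35 CPM in control tumours (SD, n = 6 each), a log2 fold change of 0.22. The bifunctional enzymes that set fructose-2,6-bisphosphate went apart, PFKFB4 with the lowest log2 fold change of the list (−0.43, edgeR adjusted p = 0.436) and PFKFB3 with 0.05. The other values were 0.12 for ANKRD37, 0.08 for INSIG2, which restrains sterol synthesis, 0.06 for the lipid droplet protein HILPDA, 0.03 for the endoplasmic reticulum oxidase ERO1A, −0.06 for BNIP3L, −0.07 for the histone demethylase KDM3A, −0.12 for the vasodilator peptide ADM, −0.14 for ANKZF1 and −0.17 for the collagen prolyl hydroxylase P4HA2. Their edgeR adjusted p-values reached up to 0.967.

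The glycolysis genes lay closer together than the hypoxia targets, and the lowest unadjusted p in this list belonged to PKM, the pyruvate kinase of the last step. PKM (chr15:72199029-72231822) was at 1279.8, 1704 and 1888 CPM in knock-down tumours, against 1778, 2233 and 2434.4 CPM in control tumours. All 6 knock-down libraries lay under the control median and 3 lay under every control, while control 6, the lowest control, lay within the knock-down range. The log2 fold change was −0.38 (SE 0.112), which is 1.30-fold lower, with adjusted p = 0.193 in edgeR and 0.0502 in DESeq2. With quality weights in limma-voom the adjusted p was 0.0332.

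SLC16A3 and PFKP were the other 2 glycolysis genes with an unadjusted p under 0.05. SLC16A3 (chr17:82228397-82261129), the proton-coupled lactate exporter MCT4, was at 23.5, 30.6 and 64.8 CPM in knock-down tumours, against 30.6, 56.0 and 94.1 CPM in control tumours. Knock-down 1 alone reached the upper control values and 3 knock-down libraries lay under every control (log2 fold change −0.69, SE 0.282, edgeR adjusted p = 0.324). PFKP (chr10:3066333-3137712), the platelet-type phosphofructokinase, was at 139.8, 184 and 252 CPM in knock-down tumours, against 177, 251.2 and 270.1 CPM in control tumours. A single control, control 6, lay low at 177 CPM and 5 of 6 knock-down libraries lay under the control median (log2 fold change −0.36, SE 0.146, edgeR adjusted p = 0.319).

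At the entry of the pathway, the hexokinases HK1 and HK2 had log2 fold changes of opposite sign. HK2, the inducible isozyme, was at 112, 135 and 153 CPM in knock-down tumours, against 125, 159 and 199.8 CPM in control tumours, and all 6 knock-down libraries lay under the control median (log2 fold change −0.26, edgeR adjusted p = 0.411). HK1 was at 39.7, 52.8 and 121 CPM in knock-down tumours, against 31.2, 54.9 and 76.6 CPM in control tumours. Its positive log2 fold change of 0.24 rested on knock-down 4 and was −0.04 without that library. GPI, PFKL, PFKM, ALDOA and ALDOC, which carry glucose phosphate to triose phosphates, had log2 fold changes of 0.01, −0.01, −0.06, 0.18 and −0.11.

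Further down the pathway, and apart from PKM and the exporter SLC16A3, log2 fold changes lay between −0.20 (ENO2) and 0.05 (LDHA). TPI1, which interconverts the triose phosphates, was at 279, 367 and 415 CPM in knock-down tumours, against 364, 433 and 445 CPM in control tumours, with all 6 knock-down libraries under the control median (log2 fold change −0.19, edgeR adjusted p = 0.473). ENO1, the main enolase here, was at 3090, 4116 and 4587 CPM, against 3557, 4677 and 5436 CPM, again with 6 of 6 under the control median (−0.19, adjusted p = 0.528 in edgeR). GAPDH averaged 1821 ± 122 CPM in knock-down and 1827 ± 277 CPM in control tumours (SD, n = 6 each), and its log2 fold change of −0.01 was 0.01 under limma-voom. LDHA, which makes lactate, was at 1276, 1581 and 1967 CPM in knock-down tumours, against 1317, 1581 and 1790.0 CPM in control tumours, and the groups lay on top of each other with a log2 fold change of 0.05 (−0.04 with quality weights). PGK1 averaged 881 ± 121 CPM in knock-down and 979 ± 57.7 CPM in control tumours (log2 fold change −0.15), and ENO2 and PGAM1 had log2 fold changes of −0.20 and −0.001. Summed over the 17 genes, the share of all counts was 1.20% ± 0.121 in knock-down and 1.34% ± 0.162 in control tumours (SD, n = 6 each).

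Ratios between isozymes or paralogues within a library do not depend on its scaling, and 11 of them were set side by side with an exact permutation test (two-sided, all 924 ways to assign 6 of the 12 libraries to knock-down), whose smallest possible p is 0.00216. The splits treat the 12 libraries as independent, although some share a title number whose meaning is not stated. If libraries with the same number came from the same animal, fewer splits would be allowed and the smallest possible p would be larger. None of the 11 ratios passed after Benjamini-Hochberg adjustment. The log2 ratio of BNIP3L over BNIP3, a pair of mitophagy receptors, ran between −0.90 and 0.49 in knock-down tumours and between 0.30 and 0.94 in control tumours. It averaged −0.09 ± 0.479 in knock-down and 0.57 ± 0.216 in control tumours (SD, n = 6 each), with 5 of 6 knock-down libraries below every control (difference −0.65, exact permutation p = 0.00649, adjusted 0.0714). BNIP3L on its own differed little, at 86.7, 103 and 139 CPM in knock-down tumours, against 86.9, 114 and 132 CPM in control tumours. Knock-down 6, at 0.49, was the one inside the control range. The difference was −0.77 without it, and since its removal alone separates the groups, which puts an exact test at its smallest p, no test of that value is given.

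The log2 ratio of PFKP over the muscle-type PFKM averaged −0.78 in knock-down and −0.47 in control tumours. In 5 of 6 knock-down libraries it lay below every control (difference −0.31, exact permutation p = 0.0476, adjusted 0.220), and knock-down 4 stood apart at −0.28. The difference was −0.42 without knock-down 4, whose removal likewise separates the groups, so that value too has no test. PFKM itself was at 256, 318 and 372 CPM in knock-down tumours, against 272, 335 and 379 CPM in control tumours. The other 9 ratios had differences between −0.46 (HK2 over HK1) and 0.13 (EGLN3 over EGLN1), with exact permutation p-values between 0.0714 and 0.900.

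**Figure D3:**
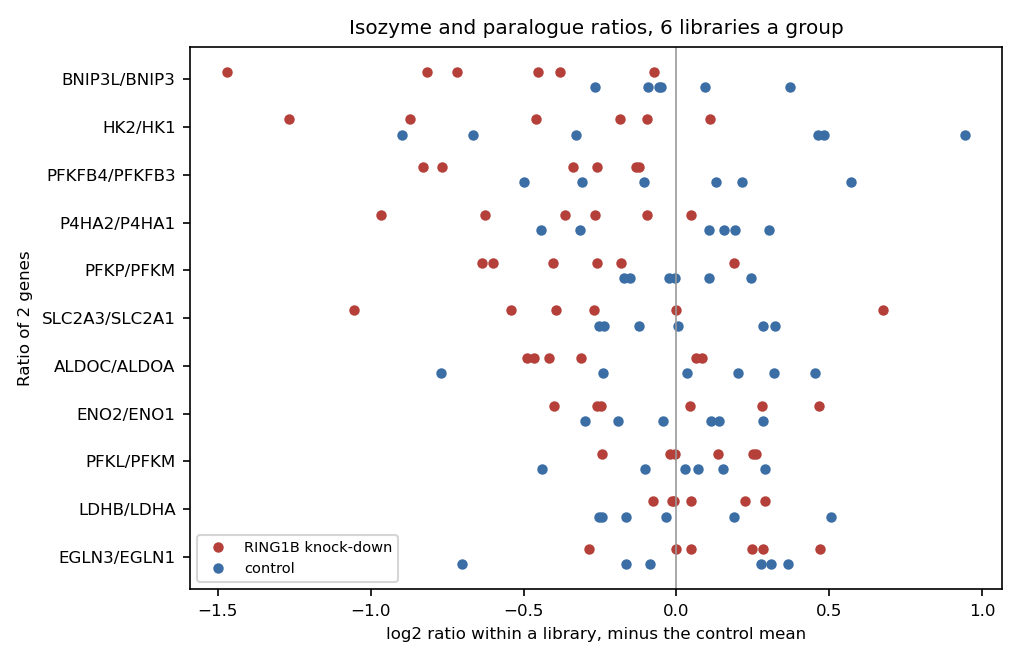
Log2 ratio of 2 genes within each library, minus the mean over control libraries, for 6 RING1B knock-down (red, upper row) and 6 control (blue, lower row) libraries of 11 gene pairs. The ratios BNIP3L over BNIP3 and PFKP over PFKM have 5 of 6 knock-down points to the left of every control point, and none of the 11 differences passed the adjusted test.

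Libraries were then ordered by a hypoxia index, the mean over the 25 targets of log2 CPM (prior count 2) after subtraction of each gene's mean over the 12 libraries. The 3 highest and the lowest library were all knock-down tumours. Knock-down 4 was first at 0.44, knock-down 5 next at 0.26 and then knock-down 2 at 0.22. Control 1 at 0.09, control 3 at 0.01 and control 6 at −0.05 followed, then knock-down 1 at −0.08 and knock-down 3 at −0.12. Control 5 at −0.13, control 2 at −0.14 and control 4 at −0.22 came next, and knock-down 6 was last at −0.30. With library size as the only scaling, control 6 moved down this order. The index averaged 0.07 ± 0.279 in knock-down and −0.07 ± 0.113 in control tumours (SD, n = 6 each), a gap smaller than the spread among knock-down libraries.

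The SD of log2 CPM was higher in knock-down for 18 of 25 hypoxia targets (72.0%), and the same was true of 59.9% of all genes tested. Its median over the targets was 0.37 in knock-down and 0.26 in control tumours, beside 0.31 and 0.27 over all genes tested. For glycolysis genes the SD was higher in knock-down for 10 of 17, with medians of 0.21 and 0.23. The highest library was a knock-down tumour for 18 of the 25 targets, knock-down 4 for 10 of them and knock-down 5 for 6, and the lowest was a knock-down tumour for 12, knock-down 6 for 10 of them. The SD of the index among knock-down libraries was 0.237 without knock-down 4 and 0.238 without knock-down 6, and among controls it stayed between 0.0896 and 0.126 with any 1 library left out. Whether the spread of the targets differs between the groups, or from that of other genes, was not tested.

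**Figure D4:**
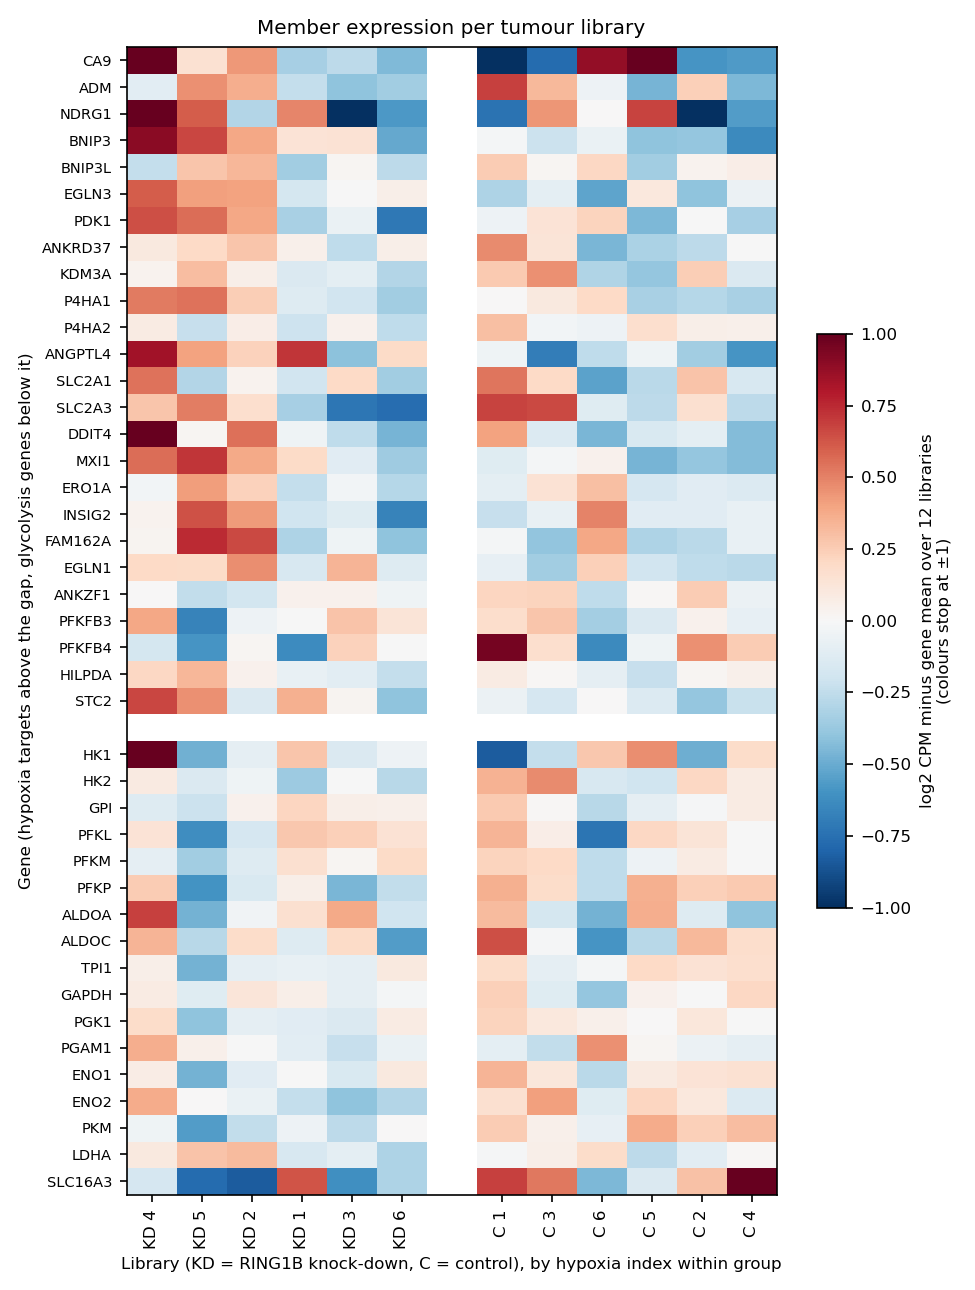
Log2 CPM of each of the 42 genes minus its mean over 12 libraries, by library, with 6 RING1B knock-down (left) and 6 control (right) libraries ordered by hypoxia index within each group (25 hypoxia targets above, 17 glycolysis genes below). Knock-down 4, 5 and 2 are high for most hypoxia targets and knock-down 6 is low, while glycolysis genes are lowest in knock-down 5 or control 6 for 11 of 17.

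The order by glycolysis index, made the same way from the 17 genes, was another one. Control 1 at 0.21 and knock-down 4 at 0.20 were highest, while knock-down 5, second for hypoxia, was lowest at −0.33 and control 6 next lowest at −0.18. Of the 17 genes 14 were highest in a control library, 8 of them in control 1, and 11 were lowest in knock-down 5 or control 6. The index averaged −0.06 ± 0.176 in knock-down and 0.06 ± 0.132 in control tumours (SD, n = 6 each). LDHA had its highest values in knock-down 2 at 1967 CPM and knock-down 5 at 1922 CPM, and among controls in control 6 at 1790.0 CPM. Mitochondrial genes took 10.01% of counts in knock-down 5 and 14.4% in control 6, the highest share of either group, and their part in the low glycolysis index was not tested.

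**Figure D5:**
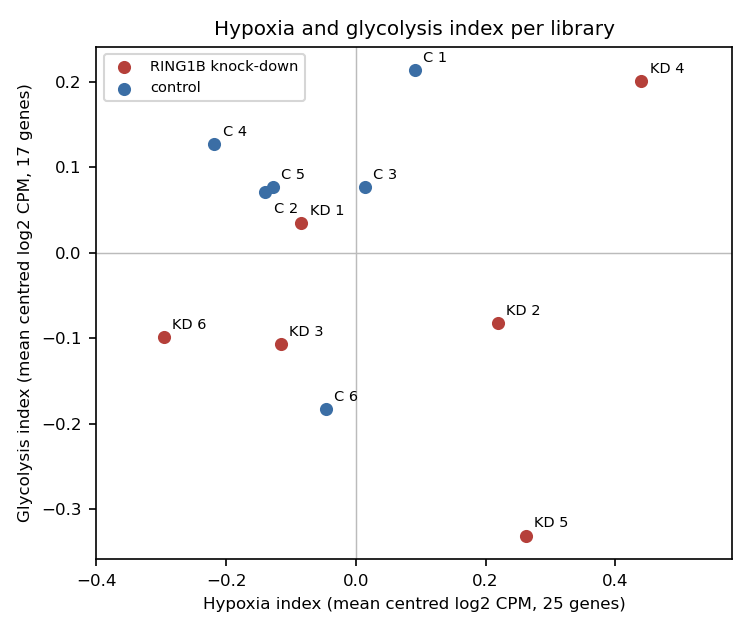
Hypoxia index (horizontal) against glycolysis index (vertical) for 6 RING1B knock-down (red) and 6 control (blue) libraries, each a mean of centred log2 CPM. Knock-down 4 is high on both at 0.44 and 0.20, knock-down 5 is high for hypoxia at 0.26 and lowest for glycolysis at −0.33, and 5 of 6 controls lie above 0 for glycolysis.

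CA9 alone gave a different order, with knock-down 4 still first but control 5 and control 6 next and control 1 last. Summed markers listed for other cells went with parts of these orders. Summed fibroblast and pericyte markers were highest in knock-down 4 at 1551 CPM, control 5 at 1548 CPM and control 6 at 1277 CPM, which are also the 3 libraries with the highest CA9, and were lowest in knock-down 5 at 397 CPM, the second library of the hypoxia index. Summed macrophage and leukocyte markers were likewise highest in knock-down 4 at 21.8 CPM and control 5 at 17.4 CPM. Between the groups, the fibroblast and pericyte genes differed in direction, 3 of the 7 tested being positive and 4 negative. DCN and LUM had log2 fold changes of 0.71 (edgeR adjusted p = 0.0844) and 0.39. COL1A1, COL1A2 and COL3A1 had −0.43, −0.46 and −0.47. Which cells the marker counts came from, and the part of the markers in the order, were not tested.

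Hypoxia indices of libraries with the same title number differed by more than the median pair of their group in 3 of 4 cases. They differed by 0.555 between knock-down 3 and 4 (title number 67) and by 0.558 between knock-down 5 and 6 (68), against a median of 0.334 over all 15 pairs of knock-down libraries. They differed by 0.231 between control 1 and 2 (60) and by 0.0907, the exception, between control 4 and 5 (62), against a median of 0.138 over all 15 control pairs. The 2 knock-down pairs joined the highest library with a middle one and the second highest with the lowest.

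The regulators upstream of these targets showed no called gene either. Of 17 genes of the HIF pathway, 16 were tested, 7 had a positive log2 fold change, and 0 were called by edgeR, DESeq2 or limma-voom, with 0 at an unadjusted p under 0.05. HIF1A, the oxygen-regulated subunit, averaged 55.1 ± 16.5 CPM in knock-down and 55.4 ± 8.90 CPM in control tumours (SD, n = 6 each), EPAS1 averaged 11.03 ± 3.46 and 10.8 ± 2.69 CPM, and VHL averaged 89.6 ± 22.8 and 102.6 ± 13.4 CPM. HIF1A is controlled mainly at the protein level, which RNA counts do not measure. The smallest p-values in this list belonged to ELOC, the elongin C subunit of the VHL ligase (log2 fold change 0.38), to the coactivator EP300 (−0.30) and to the ubiquitin ligase SIAH1 (0.39), with edgeR adjusted p-values of 0.430, 0.491 and 0.531.

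A list of 38 other hypoxia targets, 35 of them tested, lay near the shares of all genes. Of these 19 lay on the positive side (54.3%, against 52.4% of all genes), their median log2 fold change was 0.03, 0 were called by edgeR, DESeq2 or limma-voom, and 3 were higher (8.57%, against 7.45% of all genes) and 1 lower (2.86%, against 5.21%) at an unadjusted p under 0.05. VEGFA, the main angiogenic ligand of the response, averaged 143 ± 44.3 CPM in knock-down and 121 ± 25.6 CPM in control tumours (SD, n = 6 each), a log2 fold change of 0.24 with an edgeR adjusted p of 0.627. KDM5B, a histone demethylase, averaged 70.4 ± 21.6 and 49.1 ± 9.64 CPM (0.52, adjusted p = 0.261 in edgeR), and CCNG2, an atypical cyclin, averaged 18.3 ± 4.15 and 13.9 ± 2.53 CPM (0.40, adjusted p = 0.326 in edgeR). FUT11, a fucosyltransferase, averaged 23.6 ± 2.15 and 29.7 ± 5.09 CPM (−0.33, adjusted p = 0.277 in edgeR).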

How the data were processed

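RNA-seq was measured in 12 libraries of SK-ES1 xenografts, 6 of RING1B knock-down and 6 control, with RNeasy extraction and TruSeq stranded mRNA libraries per the labels' protocols. The authors deposited raw counts per gene. The submitters' processing notes list FastQC, featureCounts, STAR 2.6.0a, R 3.6.0 and limma 3.40.2, with build hg38. The sources used here give neither the strand setting nor how multi-mapping and host reads were handled. Gene names and exons matched GENCODE release 29, which gives the coordinates. Of the names, 219 stand for several loci, none a member.

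In R 4.3.3, genes were kept by filterByExpr of edgeR 4.0.16 (16519 genes, at least 99.72% of counts), scaled by TMM and tested by the quasi-likelihood F test with robust fits over all 12 libraries without covariates. Calls needed a Benjamini-Hochberg adjusted p under 0.05 over all genes. DESeq2 1.42.0 and limma-voom (limma 3.58.1), other scalings, filters and left-out libraries were alternatives. The fit was checked on simulated counts. The members and lists were chosen with earlier results of these data known. Genes given in full were CA9, the 5 genes of each list with the smallest p, the 3 hypoxia targets and 2 glycolysis genes of largest spread, the 3 of each list highest per kilobase, and both genes of any ratio with an unadjusted p under 0.05. STC2, PDK1 and PGK1 were added after their values were seen. From the lists of HIF pathway regulators, other hypoxia targets and other glucose and pyruvate genes, the 3 with the smallest p each were named. HIF1A, EPAS1, VHL and VEGFA were named for their role, and LDHB and marker genes of cell types outside this rule.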

Additional observations from a re-analysis of the deposited data

Results flagged for a closer look

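Of 110 groups of 6 libraries checked, 84 of them CPM of a member, 10 had a library far from the other 5. Far means that its gap to the nearest library was over 0.625 of the range. For independent normal values that happens about 1 in 20 times. These groups share genes and libraries, so 10 of 110 is not read as an excess. Knock-down 4 was high for CA9 at 1.92 CPM (next 0.931), NDRG1 at 11.8 CPM (next 3.22) and HK1 at 121 CPM (next 67.2), knock-down 1 was high for SLC16A3 at 64.8 CPM (next 37.3), and knock-down 5 was low for TPI1 at 279 CPM (next 365). Among controls, control 6 was high for INSIG2 at 26.2 CPM (next 17.7) and PGAM1 at 62.1 CPM (next 46.0), low for PFKP at 177 CPM (next 239.6) and low for the glycolysis index at −0.18 (next 0.07). Control 1 was high for DDIT4 at 127 CPM (next 89.7). Control 6 was also the library with the fewest genes with a count, and the part of that in its values was not tested.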

How the results depend on the processing

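No member passed the edgeR test under any other scaling, filter, left-out library or covariate tried. DESeq2 called 1 hypoxia target (ANGPTL4, adjusted p = 0.0437) and limma-voom with quality weights called 1 glycolysis gene (PKM, adjusted p = 0.0332), in fits that called 351 and 500 genes, against 49 in edgeR. With counts summed by title number 7 genes were called, with the title letter as a covariate 28, with title number as a random effect 91, and with 1 library left out 16 to 79. Signs turned for values near 0 or resting on few libraries, and the cause was not tested. Without control 6, knock-down 4 and knock-down 5, NDRG1 was at −0.15 and the EGLN3 over EGLN1 ratio at −0.14. GAPDH was at 0.0067 under limma-voom and 0.059 with counts summed by title number, and LDHA at −0.041 with quality weights. With each library left out in turn, CA9 ran between −0.15 and 0.60, HK1 between −0.038 and 0.35, GAPDH between −0.072 and 0.037, LDHA between −0.0081 and 0.10, and the log2 ratios of ENO2 over ENO1 between −0.12 and 0.057, PFKL over PFKM between −0.026 and 0.12, EGLN3 over EGLN1 between −0.013 and 0.21, PFKP over PFKM between −0.42 and −0.25 and BNIP3L over BNIP3 between −0.77 and −0.49. By CA9 alone, control 1 ranked 12 (4 by the index), control 3 ranked 11 (5), control 5 ranked 2 (9) and control 6 ranked 3 (6). With library size as the only scaling, control 6 ranked 10 by the index. CA9 has no value with a filter of 1 CPM in 6 libraries, and leaving libraries out does not reorder the others in the index. No paired analysis was possible because no title number occurs in both groups and other replicate numbers only name libraries. Intervals between libraries cover counting error and tumour differences together, and CA9, with 19.4 counts per library, is limited by depth.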

Other observations

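Of 35 other genes of glucose and pyruvate use, 23 were tested and 14 lay on the positive side, with a median log2 fold change of 0.04, against −0.11 for the 17 glycolysis genes. EdgeR called 0 and limma-voom 0 (0.297% and 0.339% of all genes), and DESeq2 called 1 (2.22% of all genes). At an unadjusted p under 0.05, 2 were higher (8.70%, against 7.45% of all genes) and 1 lower (4.35%, against 5.21%). ENO3, the muscle-type enolase, averaged 16.3 ± 1.80 CPM in knock-down and 21.0 ± 1.83 CPM in control tumours (SD, n = 6 each), a log2 fold change of −0.37 with an edgeR adjusted p of 0.188. The 7 skeletal muscle markers, of which 2 were abundant enough to test, summed to 5.21 ± 5.55 CPM in knock-down and 12.2 ± 9.50 CPM in control tumours, with ACTA1 at a log2 fold change of −0.97 and CKM at −1.09 (edgeR adjusted p = 0.549 and 0.441), and MYH1, MYH2 and MYH4 were listed at 0 in 4, 2 and 3 libraries. Their part in the ENO3 values was not tested. MPC1, a subunit of the mitochondrial pyruvate carrier, averaged 27.5 ± 4.57 CPM in knock-down and 20.0 ± 4.56 CPM in control tumours (0.46, adjusted p = 0.233 in edgeR). PDK3, a pyruvate dehydrogenase kinase, averaged 4.91 ± 2.22 CPM in knock-down and 2.39 ± 1.79 CPM in control tumours (1.04, adjusted p = 0.351 in edgeR). LDHB, the other main lactate dehydrogenase subunit, averaged 478 ± 127 CPM in knock-down and 441 ± 130 CPM in control tumours, with a log2 fold change of 0.12.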
